A study of Mus musculus with 12 samples.

Results

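The sites described here are poly(A) site clusters that carry no listed polyadenylation signal and stand alone on their strand. A cluster was taken where its hexamer entry was "none" and no other cluster of the same chromosome and strand lay within an edge-to-edge gap of 2000 nt on either side. The rule found 2738 such sites among 145099 nuclear clusters, a share of 1.89% (95% Wilson interval 1.82 to 1.96%), and the 80 mitochondrial clusters were left out. They are called signal-less isolated sites below. Their share among the 15698 clusters with no hexamer entry was 17.4% (interval 16.9 to 18.0%), and among the 47378 isolated sites it was 5.78% (interval 5.57 to 5.99%). The other 44640 isolated sites had a hexamer and served as the main comparison, called isolated hexamer sites.

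Most mRNA 3' ends are made by cleavage and polyadenylation. A multi-subunit complex, CPSF, binds a hexamer upstream of the cut, most often AATAAA, while CstF binds a U- or GU-rich element downstream of it, and a poly(A) polymerase then adds the tail. Some genuine sites work without a recognisable hexamer, through flanking elements bound by other subunits of the machinery. Internal A-rich stretches of a transcript can also capture an oligo-dT primer and appear as 3' ends, so sites without a hexamer are a mixed class in any assay of this kind. U1 snRNP, beside its role at 5' splice sites, suppresses premature cleavage and polyadenylation in introns and near promoters, and the nuclear exosome degrades many of the short RNAs that such cleavage leaves.

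RNA came from V6.5 mouse embryonic stem cells, in clones with a conditional knockout of Exosc3, a core exosome subunit, and 3' ends were read by 2P-seq, which sequences inwards from the poly(A) tail. The labels give 12 libraries in 6 groups of 2. Cells without doxycycline (Exosc3-) were collected after 3 days, or after 2 days with a U1 antisense morpholino oligonucleotide (AMO) or a scrambled (Scr) AMO. Cells kept in doxycycline at 0.1 μg/ml (Exosc3+) were collected in the same 3 ways, and the AMOs were nucleofected at 15 μM, 8 hours before harvest. All 6 groups share the conditional knockout genotype and derive from clones. Not given in the sources used here is the number of clones.

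The values analysed were the positions, strands and hexamer entries of 1 catalogue for the whole series, on the mm9 build. Of its 7 columns, 0 held a value of a library, so the depth of the libraries is unknown and no level of any site in any group could be given. No value below is therefore an effect of Exosc3 loss or of U1 inhibition. The spread given with each mean is the SD over the 19 autosomes, and differences were tested over them with a 2-sided sign-flip permutation test, adjusted over 20 comparisons (smallest possible p 1e-05). Chromosomes are not biological replicates, so such a p measures how evenly a difference held over the genome.

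The sites have no signal sequence of their own to show, so the hexamers they lack are given instead. The catalogue used 36 hexamers, which fall into 5 classes. AATAAA is the canonical signal and ATTAAA its main variant. A further 14 are A-rich, with 5 or more A, and this class was set apart first, including any that differ from AATAAA at 1 base. Another 11, with fewer A, differ from AATAAA at 1 base and are called 1-base variants. The remaining 9 differ at 2 or more bases, and they are shown because the isolated sites listed with them had class means nearer to those of the signal-less ones than any other class in 8 of the 9 measures below, all but the upstream share. They are AACAAT, with 88 isolated sites, AAGAAT with 67, CATTAA with 64, TATTAA with 60, CATAAT with 52, AAGTAA with 44, GATTAA with 36, ACTAAT with 30 and ATTAAT with 1. The rule set isolation itself, so the share isolated in each class is only a description. It was 17.4% for sites without a hexamer, 16.5% for the 9 divergent hexamers, 20.9% for the 1-base variants, 27.4% for A-rich hexamers, 31.8% for ATTAAA and 43.1% for AATAAA (interval 42.7 to 43.4%).

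The threshold did not fall in a natural gap of the data. Among sites without a hexamer, 71 had their nearest same-strand neighbour at up to 100 nt beyond the limit and 74 at up to 100 nt inside it. The site that just met the rule, 1 of 2 with a gap of 2002 nt, lay on the minus strand at chr17:66213981-66213981 (mm9), and the one that just missed it lay on the minus strand at chr9:108982664-108982664 with a gap of 2000 nt. Isolation held well beyond the limit for many members, but for a smaller share of them than of isolated hexamer sites. Of the 2738 sites, 57.7% had no same-strand site within 5000 nt, 35.0% had none within 10000 nt and 9.93% had none within 50000 nt. For isolated hexamer sites these shares were 67.2%, 46.5% and 15.8%. The opposite strand was not part of the rule, and 80.3% of the sites (interval 78.8 to 81.8%) also had no opposite-strand site within 2 kb, against 83.6% of isolated hexamer sites (interval 83.2 to 83.9%).

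Signal-less isolated sites were over-represented at both extremes of cluster width. A cluster 1 nt wide covers a single genomic position. Of the signal-less isolated sites 684 were 1 nt wide, which was 24.9% ± 3.87 over autosomes (SD, n = 19, lowest 18.1%, median 24.8%, highest 34.4%). Of isolated hexamer sites 17.3% ± 1.02 were 1 nt wide (lowest 15.9%, median 17.2%, highest 19.1%). The ranges over autosomes overlapped, but within each of the 19 autosomes the share was higher among signal-less sites. The difference was 7.64 percentage points ± 3.47 (adjusted p = 2.22e-05, permutation test).

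At the other extreme, 99 signal-less isolated sites were wider than 50 nt. This was 3.59% ± 1.71 over autosomes (lowest 1.53%, median 3.67%, highest 6.86%), against 1.08% ± 0.237 of isolated hexamer sites (lowest 0.532%, median 1.06%, highest 1.44%). The groups did not overlap on autosomes, and the difference was 2.51 percentage points ± 1.67, positive on 19 of 19 (adjusted p = 2.22e-05, permutation test). Widths above 100 nt were found for 19 signal-less isolated sites, 0.694% (interval 0.445 to 1.08%), and for 37 isolated hexamer sites, 0.0829% (interval 0.0601 to 0.114%). Widths of 2 to 5 nt were less frequent, with 24.4% of the signal-less sites (interval 22.9 to 26.1%) against 30.3% of the hexamer sites (interval 29.9 to 30.7%), and so were widths of 6 to 10 nt, with 15.4% against 21.6%. At 21 to 50 nt the signal-less sites were again ahead, with 404 of 2738 (interval 13.5 to 16.1%) against 4896 of 44640 (interval 10.7 to 11.3%).

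Because both tails were heavier, the centre hardly differed. The median width was 6 nt in both sets, with quartiles of 2 and 16 nt for signal-less and 2 and 13 nt for hexamer sites. The mean log2 width was 2.41 ± 0.18 and 2.43 ± 0.071, a difference of -0.017 ± 0.15 (adjusted p = 0.642, permutation test). That mean depends on which tail is kept. Among clusters of up to 50 nt the signal-less sites were narrower, by -0.12 (adjusted p = 0.00317, permutation test), and among clusters wider than 1 nt they were wider, by 0.27 (adjusted p = 2.5e-05, permutation test).

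Isolation went with narrow clusters among sites without a hexamer, and also among sites with one. The 12960 signal-less sites that had a same-strand neighbour within 2000 nt had a median width of 14 nt, and their mean log2 width was 3.48 ± 0.20. The isolated ones lay below them by -1.07 ± 0.23 on the log2 scale, on 19 of 19 autosomes (permutation test, adjusted p = 2.22e-05). The share 1 nt wide was higher in the isolated ones by 12.3 percentage points ± 4.29, and the share wider than 50 nt was lower by 8.44 percentage points, with 3.59% ± 1.71 of isolated and 12.0% ± 2.26 of the other signal-less sites (both adjusted p = 2.22e-05, permutation test). Hexamer sites went the same way, which was not tested. Their mean log2 width was 2.43 ± 0.071 when isolated and 3.35 ± 0.045 when not. The share 1 nt wide was 17.3% against 9.42%, and the share wider than 50 nt was 1.08% against 6.45%.

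**Figure D1:**
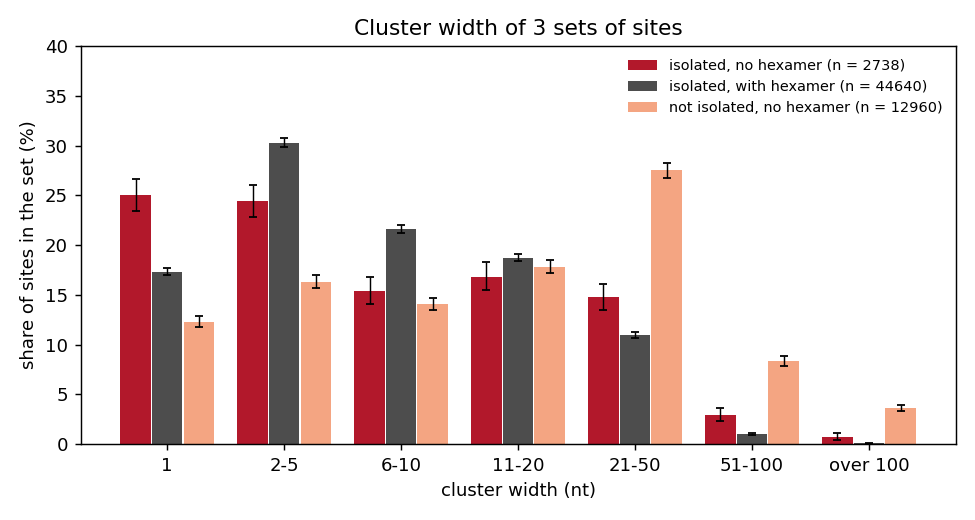
Share of sites (%) in 7 ranges of cluster width (nt) for signal-less isolated sites (red, n = 2738), isolated hexamer sites (dark grey, n = 44640) and signal-less sites that are not isolated (orange, n = 12960), with 95% Wilson intervals as bars. Signal-less isolated sites exceed isolated hexamer sites at 1 nt (684 of them) and above 20 nt, while signal-less sites with neighbours are most frequent at 21 to 50 nt.

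The clearest difference of the signal-less isolated sites from isolated hexamer sites was a same-strand site some way downstream of them. Downstream means in the direction of transcription. The rule had removed every site with a closer same-strand neighbour on either side from both sets. The tests of downstream, upstream and nearest sites therefore compare only gaps beyond its limit. A downstream same-strand site lay within 20 kb for 1864 of the 2738, which was 67.7% ± 5.36 over autosomes (lowest 58.0%, median 67.8%, highest 78.1%). For isolated hexamer sites it was 50.4% ± 4.18 (lowest 43.6%, median 50.3%, highest 57.2%). The 2 sets did not overlap over autosomes, and the difference of 17.3 percentage points ± 3.28 was positive on 19 of 19 (adjusted p = 2.22e-05, permutation test). The median gap to the next downstream site was 9602 nt for signal-less sites, against 19764 nt for isolated hexamer sites.

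On the upstream side the sets were closer. An upstream same-strand site lay within 20 kb for 57.3% ± 6.96 of the signal-less isolated sites, against 51.5% ± 4.49 of isolated hexamer sites. This difference was 5.81 percentage points ± 6.17, positive on 16 of 19 autosomes (permutation test, adjusted p = 0.000733). The median upstream gap was 14953 nt, against 18824 nt. The downstream share minus the upstream share was 10.4 percentage points ± 5.37 for signal-less isolated sites and -1.10 ± 0.734 for isolated hexamer sites. These differed by 11.5 percentage points ± 5.28, on 18 of 19 autosomes (adjusted over 3 windows, p = 1.5e-05, permutation test). With windows of 10 and 50 kb that difference was 13.7 and 5.55 percentage points. This contrast was added after the gaps had been seen. A lean to the downstream side was not particular to isolated sites. Of signal-less sites that were not isolated, 96.6% had a downstream and 89.9% an upstream site within 20 kb. For hexamer sites that were not isolated the shares were 90.4% and 91.1%. These sites have a close neighbour by the rule, and their contrast was not tested.

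The excess was concentrated in the nearest gaps that the rule allowed, next to its own limit. The next downstream site lay at 2 to 5 kb for 29.5% of signal-less isolated sites (interval 27.8 to 31.2%), against 18.0% of isolated hexamer sites (interval 17.7 to 18.4%). At 5 to 10 kb it did so for 21.8% of the signal-less (interval 20.3 to 23.4%) and 15.9% of the hexamer sites (interval 15.6 to 16.2%). At 10 to 20 kb the values were 16.9% and 16.3%, with intervals that overlapped. Upstream, the range of 2 to 5 kb held 20.8% of signal-less (interval 19.3 to 22.3%) and 20.1% of hexamer sites (interval 19.7 to 20.4%). The nearest same-strand site was upstream for 43.0% ± 5.11 of signal-less isolated sites, against 50.6% ± 0.850 of isolated hexamer sites, a difference of -7.56 percentage points ± 5.45 with this sign on 17 of 19 autosomes (permutation test, adjusted p = 0.000154). It was -1.38 when isolation was set at 10000 nt (adjusted p = 0.475, permutation test).

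**Figure D2:**
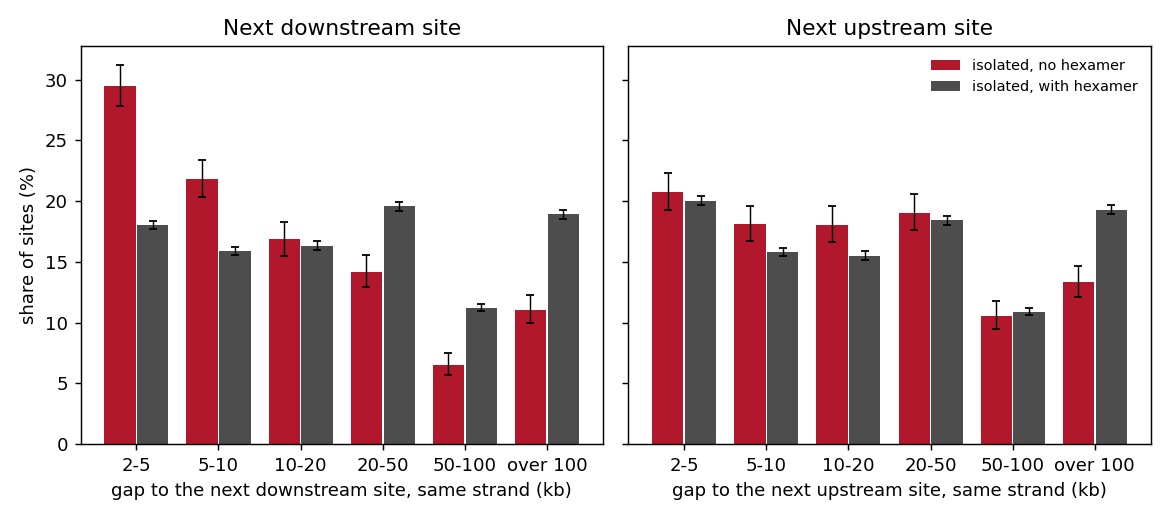
Share of sites (%) by the gap (kb) to the next downstream site (left) and the next upstream site (right) on the same strand, for signal-less isolated sites (red) and isolated hexamer sites (dark grey), with 95% Wilson intervals. The red bars stand above the grey ones downstream at 2 to 5 kb (29.5% against 18.0%), while upstream they are at 20.8% and 20.1%.

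Signal-less isolated sites also lay where the catalogue was denser. The mean of log2(1 + number of other sites within 100 kb) was 4.60 ± 0.26 for them and 4.21 ± 0.26 for isolated hexamer sites, a difference of 0.39 ± 0.14 that was positive on 19 of 19 autosomes (permutation test, adjusted p = 2.22e-05). The medians were 30 and 23 other sites. Signal-less sites that were not isolated had a median of 46, but the rule itself requires a close neighbour of them and none of the isolated ones, so that gap is a description only. Among the gaps that the rule left, the nearest same-strand gap of the signal-less isolated sites was also shorter. Its median was 6126 nt against 8858 nt for isolated hexamer sites, with a mean log2 difference of -0.47 ± 0.19 (adjusted p = 2.22e-05, permutation test). Both sets were selected on this gap, so its tests here and below compare only gaps beyond the limit of the rule. They do not measure how close sites with and without a hexamer lie to others in general.

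The downstream excess was therefore measured again within 4 ranges of local density, with p-values adjusted over 24 such comparisons. With 0 to 10 other sites within 100 kb, a downstream site within 20 kb was found for 28.2% ± 10.0 of 447 signal-less isolated sites, against 19.4% ± 1.81 of isolated hexamer sites, a difference of 8.77 percentage points (adjusted p = 0.00235, permutation test). With 11 to 30 other sites the difference was 15.4 percentage points ± 5.03 and with 31 to 60 it was 13.5 ± 4.01, both positive on 19 of 19 autosomes (both adjusted p = 8e-05, permutation test). With 61 or more it was 8.94 percentage points ± 7.06 (adjusted p = 0.000411, permutation test). The upstream share did not keep its direction. It differed by -4.96 percentage points ± 6.81 in the sparsest range (adjusted p = 0.00993, permutation test), and by 3.07, -0.417 and 3.75 in the others (adjusted p between 0.0881 and 0.802, permutation test). The ranges were set after the densities had been seen, and the sites counted for density include the neighbours themselves.

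The widths kept their direction in all 4 density ranges. The share 1 nt wide was higher among signal-less isolated sites by 5.93, 8.74, 9.27 and 6.43 percentage points from the sparsest to the densest range (adjusted p at most 0.00949, permutation tests). The share wider than 50 nt was higher by 1.92, 2.20, 2.47 and 2.48 percentage points, with an adjusted p of 0.0633 in the densest range and at most 0.0141 in the others (permutation tests). The nearest same-strand gap differed by -0.27, -0.24 and -0.22 on the log2 scale in the 3 denser ranges (adjusted p at most 0.00159, permutation tests), and differed by -0.12 ± 0.42 in the sparsest (adjusted p = 0.257, permutation test).

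The sites that followed a signal-less isolated site were less often canonical than those that followed an isolated hexamer site. Over all nuclear clusters, AATAAA was listed for 65222 of 145099, a share close to that downstream of the signal-less isolated sites. AATAAA was listed for the next downstream site in 45.6% ± 4.69 of cases (lowest 38.7%, median 44.6%, highest 55.1%), against 51.8% ± 1.37 after an isolated hexamer site (lowest 49.6%, median 51.8%, highest 53.8%). The difference was -6.28 percentage points ± 4.67, with this sign on 16 of 19 autosomes (permutation test, adjusted p = 0.0001). The next upstream site was AATAAA for 56.0% ± 3.56 against 59.2% ± 1.38, a difference of -3.13 percentage points ± 3.86 with this sign on 14 of 19 autosomes (permutation test, adjusted p = 0.00133). On the plus strand alone the upstream difference was -0.702 (adjusted p = 0.519, permutation test). Among sites that were not isolated, the next downstream site was AATAAA for 28.1% without a hexamer and 43.8% with one. That difference was not tested.

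At distances above 2000 nt, the nearest same-strand site lacked a hexamer more often for signal-less isolated sites than for isolated hexamer sites. Over all nuclear clusters, 15698 of 145099 had no hexamer, a share close to the signal-less value and above the hexamer value. The nearest same-strand site had no hexamer for 10.6% ± 3.54 of signal-less isolated sites, against 7.13% ± 1.27 of isolated hexamer sites. The difference was 3.52 percentage points ± 3.54 (higher on 15 of 19, adjusted p = 0.0004, permutation test). It was 1.84 with isolation at 5000 nt (adjusted p = 0.0604, permutation test). Among sites that were not isolated the shares lay further apart, at 32.2% without a hexamer and 10.3% with one, which was not tested. By side, the next downstream site had no hexamer for 13.5% of signal-less isolated sites (interval 12.3 to 14.9%) and 8.72% of isolated hexamer sites (interval 8.46 to 8.99%). The next upstream site lacked one for 8.07% of the signal-less (interval 7.11 to 9.15%) and 5.34% of the hexamer sites (interval 5.13 to 5.55%). A-rich hexamers were listed for 9.29% of the next downstream sites of signal-less isolated sites and 8.14% of those of isolated hexamer sites.

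**Figure D3:**
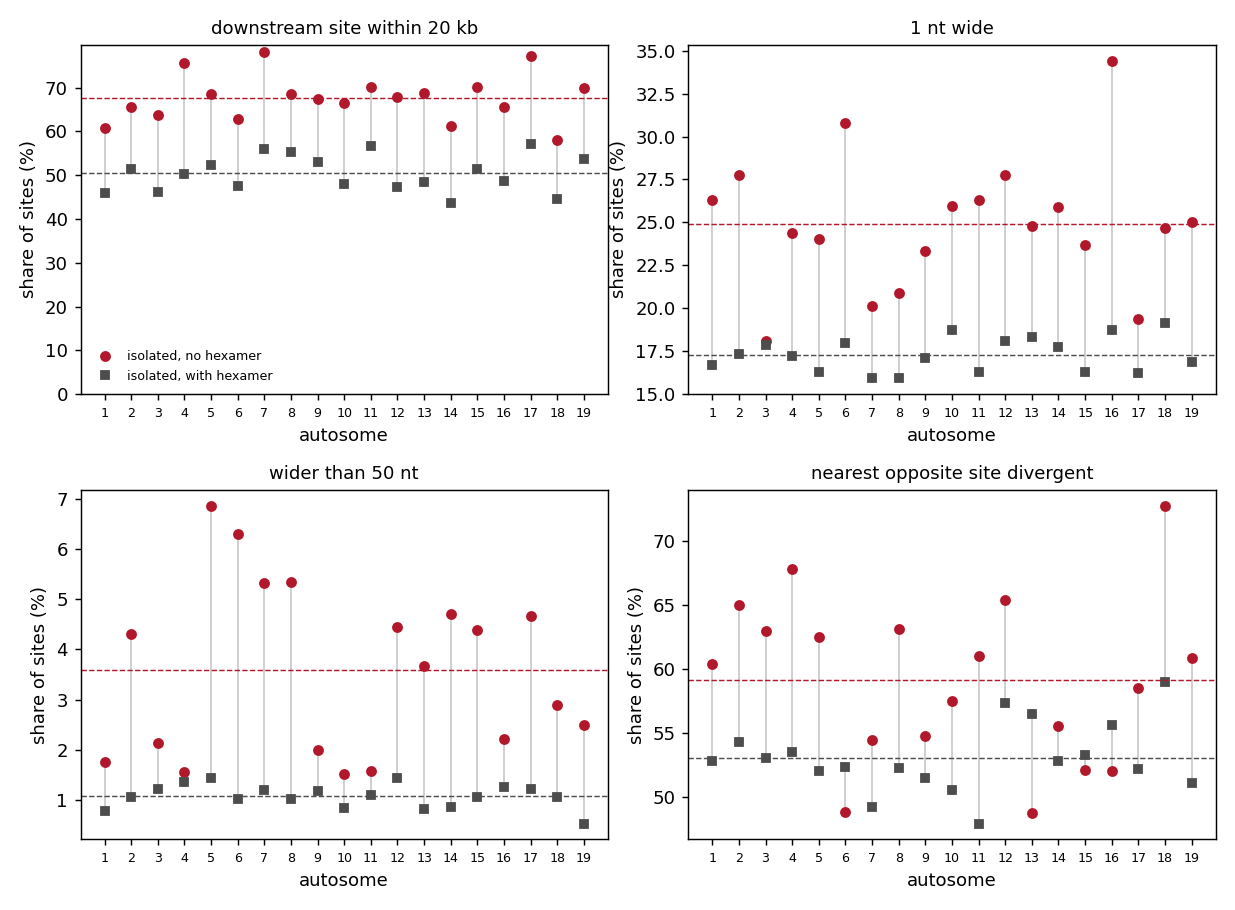
Share of sites (%) on each of the 19 autosomes for signal-less isolated sites (red circles) and isolated hexamer sites (grey squares), with grey lines joining the 2 values of an autosome and dashed lines at the means over autosomes. The red points lie above the grey ones on 19 of 19 autosomes for a downstream site within 20 kb, for a width of 1 nt and for a width over 50 nt, and on 15 of 19 for a divergent nearest opposite-strand site. The panel of downstream sites starts at 0 and the others do not.

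On the opposite strand the nearest site lay more often in the divergent arrangement. A pair is called divergent where the plus-strand site has the higher coordinate, which is the order of the ends of transcripts that leave a bidirectional promoter, a common form of promoter in mammals. Overlapping convergent genes can give the same order, and transcript starts were not used here. Of 915 signal-less isolated sites with their nearest opposite-strand site within 5 kb, 544 were divergent. Over autosomes this was 59.2% ± 6.48 (lowest 48.7%, median 60.4%, highest 72.7%), against 53.0% ± 2.70 for isolated hexamer sites (lowest 47.9%, median 52.8%, highest 59.0%). The difference was 6.15 percentage points ± 6.35, positive on 15 of 19 autosomes (permutation test, adjusted p = 0.00133). It was 2.37 with a window of 20 kb (adjusted p = 0.0573, permutation test), 5.47 with isolation at 10000 nt (adjusted p = 0.132, permutation test) and 3.64 on the minus strand alone (adjusted p = 0.105, permutation test). Within the 4 density ranges it passed only in the sparsest, at 20.0 percentage points ± 29.5 over the 18 autosomes with a value (adjusted p = 0.0173, permutation test). In the other 3 it was 7.13, 1.34 and 8.47 percentage points (adjusted p = 0.0863, 0.705 and 0.0928, permutation tests). The sparsest range held 447 signal-less isolated sites, of which only those with an opposite-strand site within 5 kb entered. Its values for single autosomes are therefore uncertain, with a mean of 80.2% ± 28.1 for the signal-less sites.

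The divergent share changed with separation in both sets. At 1000 to 1500 nt, 91 of the signal-less isolated sites had a divergent and 47 a convergent nearest partner, a divergent share of 65.9% (interval 57.7 to 73.3%). For isolated hexamer sites it was 55.2% there (interval 52.8 to 57.6%). At 2000 to 2500 nt the counts were 68 and 27, a divergent share of 71.6% (interval 61.8 to 79.7%), against 57.0% (interval 54.3 to 59.7%) for isolated hexamer sites. Below 500 nt 52.4% of partners of the signal-less sites were divergent (interval 44.3 to 60.5%), against 43.8% for the hexamer sites (interval 41.9 to 45.8%). At 3500 to 4000 nt the signal-less share was 44.4% (interval 32.8 to 56.7%) with 63 sites. Differences at single separations were not tested.

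**Figure D4:**
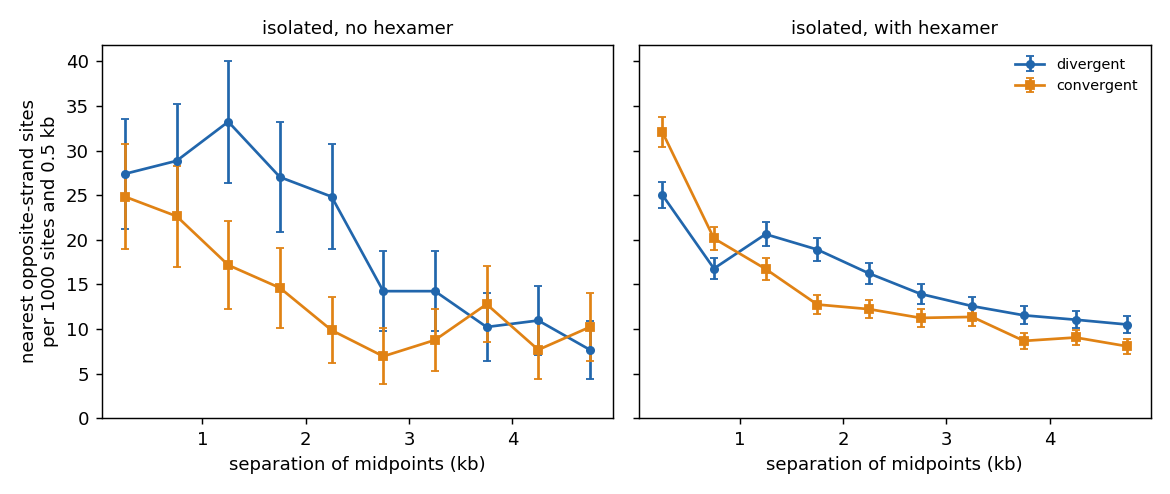
Number of nearest opposite-strand sites per 1000 sites in bins of 0.5 kb of separation between cluster midpoints, for divergent (blue circles) and convergent (orange squares) partners of signal-less isolated sites (left) and isolated hexamer sites (right), with bars for the 95% counting error (normal approximation). Divergent partners of the signal-less sites are most frequent at 1 to 1.5 kb, with 33.2 per 1000 sites against 17.2 convergent.

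How often an opposite-strand site was close by differed little. A partner within 1 kb was present for 10.4% ± 3.25 of signal-less isolated sites, against 9.51% ± 1.91 of isolated hexamer sites (difference 0.851 percentage points ± 2.98, adjusted p = 0.238, permutation test). Within 3 kb the difference was 3.36 percentage points (adjusted p = 0.000387, permutation test). Clusters that overlapped a cluster of the opposite strand were few, 14 of 2738 signal-less isolated sites or 0.511% (interval 0.305 to 0.856%), against 0.990% of isolated hexamer sites (interval 0.902 to 1.09%). Over autosomes this difference was -0.536 percentage points ± 0.378, with this sign on 17 of 19 (permutation test, adjusted p = 0.0001). The nearest opposite-strand site within 5 kb had no hexamer itself for 11.4% ± 5.62, against 8.64% ± 1.65 (difference 2.75 percentage points ± 5.29, higher on 13 of 19, adjusted p = 0.0407, permutation test). The last of these passed the threshold narrowly and lost it under 6 of its 11 alternatives. For comparison, 15698 of all 145099 nuclear clusters had no hexamer.

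Set beside single hexamer classes, the signal-less isolated sites differed from A-rich ones in 8 of 9 measures, while none of the 9 measures passed the test against the divergent hexamers. The exception among A-rich sites was the share with the nearest same-strand site upstream, 43.0% ± 5.11 for signal-less and 44.9% ± 2.28 for A-rich sites (difference -1.89 percentage points ± 6.12, permutation test, adjusted p = 0.226). These comparisons were chosen after the classes had been seen, and their p-values were adjusted over 45. Isolated A-rich sites were narrow, with a mean log2 width of 1.69 ± 0.14 and a median of 2 nt, so that the signal-less sites exceeded them by 0.72 ± 0.19 on 19 of 19 autosomes (permutation test, adjusted p = 2.65e-05). Of the A-rich sites 36.9% ± 3.62 were 1 nt wide, and the signal-less share was lower by 11.9 percentage points on 19 of 19 autosomes (permutation test, adjusted p = 2.65e-05). A downstream site within 20 kb was present for 49.3% ± 6.90 of the A-rich sites, and the signal-less share was higher by 18.4 percentage points ± 4.82 (19 of 19, adjusted p = 2.65e-05, permutation test). They lay in sparser surroundings too, with a mean of 3.99 ± 0.36 for log2(1 + sites within 100 kb), 0.61 below the signal-less sites (adjusted p = 2.65e-05, permutation test).

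The share with a downstream site within 20 kb varied with the hexamer class. From the lowest to the highest it was 47.5% ± 4.04 for AATAAA, 49.3% ± 6.90 for A-rich, 54.6% ± 4.72 for ATTAAA, 58.6% ± 5.17 for the 1-base variants, 67.7% ± 5.36 without a hexamer and 71.4% ± 10.7 for the 9 divergent hexamers. The signal-less share was above each of the first 4 on 19 of 19 autosomes (each adjusted p = 2.65e-05, permutation tests). From the 425 autosomal sites with divergent hexamers it differed by -3.66 percentage points ± 10.5 (adjusted p = 0.176, permutation test). Their width differed by -0.00015 ± 0.41 on the log2 scale (adjusted p = 0.999, permutation test), their share 1 nt wide by 0.477 percentage points ± 8.14 (adjusted p = 0.835, permutation test) and their density by -0.012 ± 0.26 (adjusted p = 0.863, permutation test). With so few sites an autosome, these spreads are wide and a difference of several percentage points was not detectable.

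**Figure D5:**
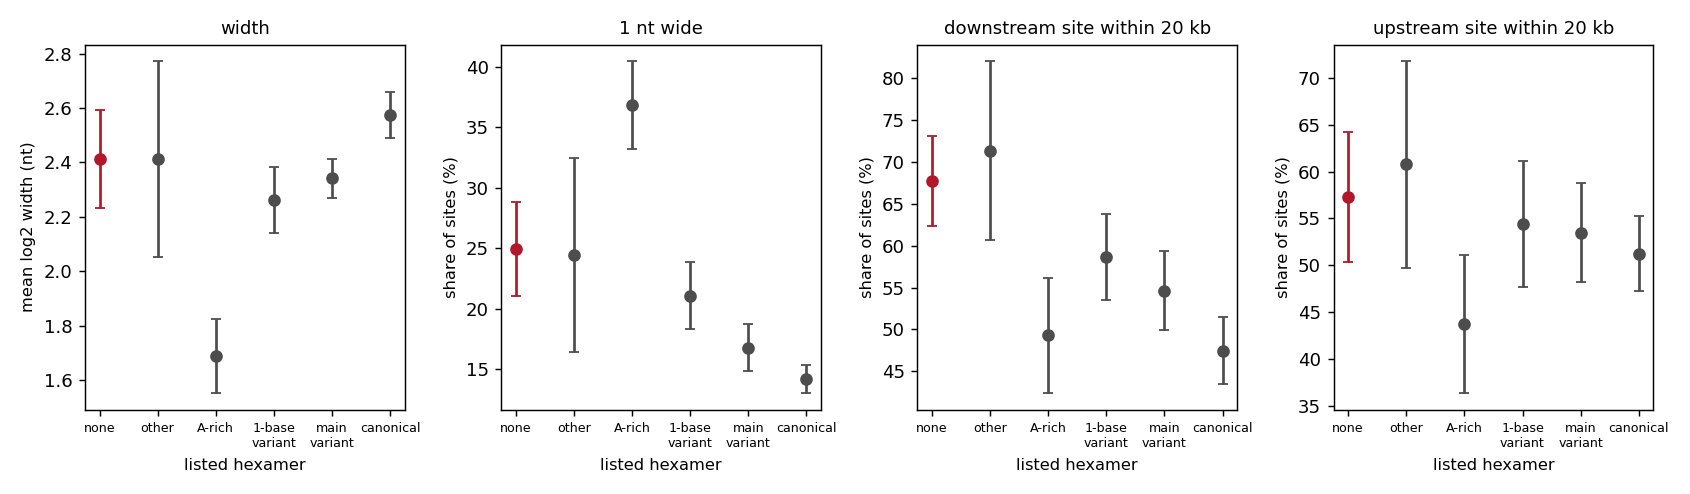
Mean over 19 autosomes with SD bars for isolated sites of 6 classes of listed hexamer (no hexamer in red), showing mean log2 width (nt), share 1 nt wide (%), and shares (%) with a downstream or an upstream same-strand site within 20 kb. Vertical axes do not start at 0. Sites without a hexamer stand at 67.7% for downstream sites against 47.5% for the canonical class, and at 24.9% for 1 nt wide against 36.9% for the A-rich class.

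Within the signal-less isolated sites, those 1 nt wide were set against wider ones in 8 measures, of which 4 passed the test. A downstream site within 20 kb was present for 63.2% ± 8.09 of those 1 nt wide, against 69.0% ± 5.85 of wider ones (difference -5.81 percentage points ± 8.60, same sign on 11 of 19 autosomes, p adjusted over 16 = 0.0181, permutation test). An opposite-strand site within 1 kb was present for 6.97% ± 5.17 of those 1 nt wide, against 11.5% ± 4.04 of the wider (difference -4.56 percentage points ± 6.83, with this sign on 15 of 19, permutation test, adjusted p = 0.0181). The same-strand gap was longer for those 1 nt wide by 0.32 ± 0.38 on the log2 scale (adjusted p = 0.00669, permutation test), and log2(1 + sites within 100 kb) was lower by 0.20 ± 0.34, with means of 4.44 and 4.64 (adjusted p = 0.0377, permutation test). The upstream share, the side and the hexamer of the nearest site and the divergent share did not pass (adjusted p between 0.0837 and 0.694, permutation tests). Isolated hexamer sites 1 nt wide differed from wider ones by -5.74 percentage points in the downstream share, -2.94 in the opposite-strand share and 0.40 in the log2 gap. Even at 1 nt, the signal-less sites were above the 45.6% ± 4.76 of isolated hexamer sites of that width with a downstream site, a gap that was not tested. By width, the downstream share was 63.7% at 1 nt (interval 60.1 to 67.3%), 64.7% at 2 to 5 nt, 72.0% at 6 to 20 nt, 73.5% at 21 to 50 nt (interval 69.0 to 77.6%) and 63.6% above 50 nt (interval 53.8 to 72.4%). The 99 widest sites had a divergent nearest partner in 69.8% of 53 cases (interval 56.5 to 80.5%).

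The sites were spread over the whole genome. They numbered 69 to 255 per autosome, with 73 on chromosome X, 0 on chromosome Y and 1 on an unplaced contig, and 49.8% lay on the plus strand (interval 47.9 to 51.7%). As a share of isolated sites, they made up 5.74% ± 0.799 over autosomes. Chromosome 11 was highest with 255 of 3329 isolated sites or 7.66% (interval 6.80 to 8.61%), and chromosome 3 lowest with 94 of 2160 or 4.35% (interval 3.57 to 5.30%). These extremes have intervals that do not overlap. Chromosome X had 4.51% (interval 3.60 to 5.63%). Of 2558 fixed windows of 1 Mb that held a cluster, 1218 held a signal-less isolated site and 579 of these held 1. Windows with 5 or more numbered 122 and held 778 of the sites, beside 22617 of all 145099 nuclear clusters. These windows were picked for holding many of the sites, so the counts are a description only.

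The 5 fullest windows held 10 or 11 of them. They were chr10:80000001-81000000, with 11 among 310 clusters, and chr8:125000001-126000000, with 11 among 248. The other 3, with 10 each, were chr17:35000001-36000000 among 273 clusters, chr5:110000001-111000000 among 216 and chr7:52000001-53000000 among 400. All 5 were dense windows, in which between 22.0% and 35.5% of clusters were isolated. In the window on chromosome 5 the 10 sites made up most of the 19 clusters without a hexamer, while in that on chromosome 7 they were 10 of 99. Which genes lie in these windows was not analysed here.

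The widest member stood far above the rest. It lay on the plus strand at chr8:122753449-122754243, was 795 nt wide, and had AATAAA sites 20135 nt upstream and 11397 nt downstream. The other 4 of the 5 widest were 193 to 229 nt wide. The second, at chr5:118488574-118488802 on the plus strand, was 229 nt wide and had an opposite-strand site 1517 nt away. The third, at chr4:43505637-43505843 on the minus strand, was 207 nt wide and lay 7957 nt before an AATAAA site. The fourth, at chr16:57391560-57391762 on the minus strand, and the fifth, at chr17:46340240-46340432 on the plus strand, were 203 and 193 nt wide. AATAAA was listed for the next upstream site of all 5, and for that of 56.4% of all signal-less isolated sites.

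At the other end, 5 members stood alone on their strand for at least 735313 nt on either side. The most remote lay on the minus strand at chr16:40218817-40218817, was 1 nt wide and had gaps of 1356249 nt upstream and 1382358 nt downstream. The next was on the plus strand at chrX:37490839-37490851, 13 nt wide, with gaps of 1167428 and 1266370 nt. A minus-strand site at chr7:78256091-78256091 was 1 nt wide with a nearest gap of 965453 nt. A minus-strand site at chr1:124253736-124253750 was 15 nt wide with a nearest gap of 790026 nt, and a plus-strand site at chr2:41628343-41628361 was 19 nt wide with a nearest gap of 735313 nt. Of these 5, 4 had 0 other clusters of either strand within 100 kb and the fifth had 1. Their widths of 1, 13, 1, 15 and 19 nt span most of the usual range.

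Clusters without a hexamer carry running numbers that increased along the table with 0 exceptions and reached 190619, of which 15712 were listed. A larger numbered set therefore lay behind the catalogue, and not given in the sources used here is what decided which clusters were listed. Between a signal-less isolated site and the listed clusters without a hexamer before and after it, on either strand, a median of 25 numbers were unlisted (quartiles 14 and 40). A directly consecutive number was listed for 9.58% of them (interval 8.53 to 10.7%). For signal-less sites that were not isolated, the median was 15 unlisted numbers. A consecutive number was listed for 34.3% of those sites (interval 33.5 to 35.1%). The positions of the unlisted clusters are unknown, so isolation is stated for the listed ones.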

How the data were processed

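The catalogue deposited by the authors lists, per the file headers, a start and end in nt, a strand, an identifier, a hexamer and its distance for each cluster. The submitters' processing notes name Trimmomatic, STAR, bedtools and mm9. Not given in the sources used here are the rules for clustering, filtering and finding hexamers. No filter against internal priming was added. Starts were taken as counted from 0 and are printed counted from 1.

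Groups came from the sample labels, and 0 libraries entered a test. Gaps were measured between cluster edges on 1 strand, and opposite-strand separations between midpoints. Differences were means over 19 autosomes, tested with 100000 sign flips (seed 1) and adjusted by Benjamini-Hochberg. Intervals are 95% Wilson intervals, which cover counting error only and treat sites as independent. The members, comparisons and lists were chosen with earlier results of these data known. Sites named by position were the 5 widest, the 5 most remote, the 5 fullest 1 Mb windows and those at the threshold. Neighbour features were checked against direct search on 1600 simulated sites, with 0 mismatches. Of 1000 simulated sets with no difference, 4.9% were called by the sign-flip test. Software was matplotlib 3.10.9, scipy 1.17.1, pandas 2.3.3 and numpy 2.4.6 under Python 3.11.15.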

Additional observations from a re-analysis of the deposited data

Results flagged for a closer look

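The effect of having no hexamer was set against the same effect among sites that are not isolated, over 19 autosomes and with p-values adjusted over 8 measures. It differed for 4 of them. Without minus with a hexamer, the share 1 nt wide was 7.64 percentage points higher among isolated sites and 3.17 higher among the others, which differed by 4.47 ± 4.27 (SD, adjusted p = 0.00108, permutation test, same sign on 17 of 19 autosomes). The share wider than 50 nt was 2.51 percentage points higher among isolated sites and 5.58 higher among the others, a difference of -3.07 ± 2.62 (adjusted p = 0.00104, permutation test, 18 of 19). The mean log2 width was -0.017 and 0.12, a difference of -0.14 ± 0.22 (adjusted p = 0.0265, permutation test, 15 of 19). The share with an opposite-strand site within 1 kb was 0.851 and 3.63 percentage points higher, a difference of -2.78 ± 4.48 (adjusted p = 0.0265, permutation test, 13 of 19). The divergent share, 6.15 and 5.21 percentage points higher, differed by 0.945 ± 8.09 (adjusted p = 0.706, permutation test). Causes were not tested.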

How the results depend on the processing

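Of 187 alternatives to 21 results, 163 kept the direction and the side of the threshold of 0.05, and 11 results kept both under all of theirs, among them the shares 1 nt wide and wider than 50 nt, the downstream share (8.52 to 20.2 percentage points) and the density against isolated hexamer sites. Differences below are of signal-less isolated sites from isolated hexamer sites, in percentage points unless on the log2 scale, and causes were not tested. With isolation at 5000 nt the test was no longer passed by the hexamer-less nearest opposite-strand site (3.17), the hexamer-less nearest same-strand site (1.84) and AATAAA upstream (-1.88). With isolation at 10000 nt, which leaves 923 autosomal sites, it was not passed by overlap (-0.283), divergence (5.47), the hexamer-less opposite-strand (3.40) and same-strand site (1.14), the nearest site being upstream (-1.38), AATAAA downstream (-3.24) or upstream (-2.37), and the upstream share (2.88). On the plus strand alone the hexamer-less opposite-strand site (3.30) and AATAAA upstream (-0.702) did not pass, and on the minus strand alone divergence (3.64) and the hexamer-less opposite-strand site (2.66). The log2 width turned to 0.024 on the minus strand and 0.27 in clusters wider than 1 nt, and passed at -0.12 in clusters up to 50 nt and -0.16 against AATAAA sites alone. The hexamer-less opposite-strand site did not pass in clusters up to 50 nt (2.07) or within 2 kb (3.66), nor did divergence within 20 kb (2.37). The opposite-strand share was -0.392 within 0.5 kb and passed at 3.36 within 3 kb. Leaving out any 1 autosome kept the sign of 19 of the 20 planned differences, and the log2 width became 0.0050 without chromosome 16. No paired analysis was possible because the catalogue holds no column of a library, and for the same reason no library could be left out. Depth is unknown, so its limits cannot be stated.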
